A study of Saccharomyces cerevisiae with 22 samples.

Results

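Heat and salt were compared directly in budding yeast, over 4 Affymetrix arrays out of 22 in the series. They were chosen by their labels and times: heat at 40 °C for 30 min and for 45 min, and osmotic stress in 0.8 M KCl for 30 min and for 45 min, 1 array each. The 2 arrays of untreated cells (a and b) served as the zero level that shows which stress moved a gene. All 6 arrays came from the strain labelled 4741, a haploid laboratory line, grown to mid-log phase in YPD at 30 °C with no other agent, and total RNA was measured. Each stress was therefore seen at both times but once per time, and the change from 30 to 45 min counts as spread within a stress. The sources used here do not state separate cultures, so a p-value reflects nothing beyond array-to-array spread, which may be technical.

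The arrays measured 5449 genes, as log2 levels made by the authors with RMA. Array medians lay between 10.18 and 10.22 on all 6 arrays, and the share of genes brighter than a background level of 4.62 was 97.5% to 99.1%. The brightest gene read between 14.79 and 14.86 on every array, and differences between genes near that level can be understated. The strain check held in part: LEU2, MET17 and URA3 read between 3.17 and 4.66, near background, and the α-factor gene MF(ALPHA)1 between 3.68 and 4.17, while the a-cell receptor gene STE2 read between 12.50 and 13.26. Of the cell type markers only STE2 and MF(ALPHA)1 are given here. The 4 α-cell markers together had a median level between 6.10 and 6.74 on the heat and KCl arrays, above background, and STE3, one of them, is given below. HIS3, a gene that laboratory lines of this family lack in part, read between 11.26 and 12.25. Control probes at both ends of a transcript bear on RNA quality: for SPT15 the 3′ end exceeded the 5′ end by 1.71 and 1.62 in heat and by 1.32 and 1.22 in KCl, and for SRB4 by 2.44 and 2.69 in heat and by 1.81 and 1.42 in KCl. For ACT1 the stresses overlapped (0.36 and 0.58 in heat, 0.40 and 0.52 in KCl). Untreated arrays a and b had gaps of 1.23 and 1.28 for SPT15, near KCl, and of 2.38 and 2.26 for SRB4, nearer heat. The 5′ probe sets of ribosomal RNA differed by array. For 18S they read 8.38 and 10.03 in heat at 30 and 45 min, 8.17 and 9.46 in KCl, and 10.62 and 8.83 in untreated cells. For 25S, in the same order, they read 4.53 and 6.12, 4.81 and 4.81, and 6.18 and 4.92. The part of RNA quality in the differences below was not tested. These are levels per unit of total RNA from a whole culture, so fewer cells of a type and less RNA per cell cannot be told apart.

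Yeast meets both stresses with a shared programme, in which general stress genes rise and ribosome production falls, and with responses of their own. Unfolded protein at high temperature releases the heat shock factor Hsf1, which drives chaperone genes, while loss of water in salt activates the Hog1 kinase, which drives glycerol synthesis and uptake. Osmotic stress also halts growth for a time while glycerol builds up.

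Between the stresses, heat exceeded KCl for 838 genes and lay below it for 830, out of 5449 genes tested with limma, at an adjusted p under 0.05. These are 15.4% and 15.2% of all genes, or 30.6% for either direction, and they are the background for every count that follows. The fit also held 2 arrays of hydrogen peroxide at the same times, which entered only through the estimate of spread. The untreated pair entered that estimate too. Its arrays differed by an SD of 0.142 over genes, against 0.411 between 30 and 45 min in heat and 0.468 in KCl. The shared spread can therefore understate that of heat and KCl, and how many calls rest on this was not tested. For a gene whose peroxide arrays lie far apart the shared spread can instead overstate it. Each of the 1668 called genes had both heat arrays on one side of both KCl arrays, against 32.3% of all genes with heat above and 30.8% with heat below. The gap within each stress is part of the spread, so this nearly follows from the call and is no separate support for it. Without the heat array at 45 min the counts were 432 higher and 416 lower, and without either untreated array 521 and 516.

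The called genes fell into classes by what each stress did against untreated cells. Heat changed 49.9% of all genes, 27.5% upwards and 22.4% downwards, KCl changed 56.2%, 30.2% upwards and 26.0% downwards, and both comparisons use the same untreated pair. Of the 838 genes higher in heat, 302 fell in KCl with no call in heat and 141 fell in both, while 210 rose in heat with no call in KCl and 66 rose in both. Another 36 rose in heat and fell in KCl, and 83 passed in neither. Of the 830 genes lower in heat, 340 rose in KCl with no call in heat, 228 rose in both, 146 fell in heat with no call in KCl, 36 fell in both, 19 fell in heat and rose in KCl, and 61 passed in neither. A gene with no call against untreated cells is not shown to be unmoved. Against untreated cells 2721 genes passed in heat and 3062 in KCl, and without an untreated array 1469 or 1491 passed in heat and 1976 or 2019 in KCl, while 1666 passed in heat without heat at 30 min.

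**Figure D1:**
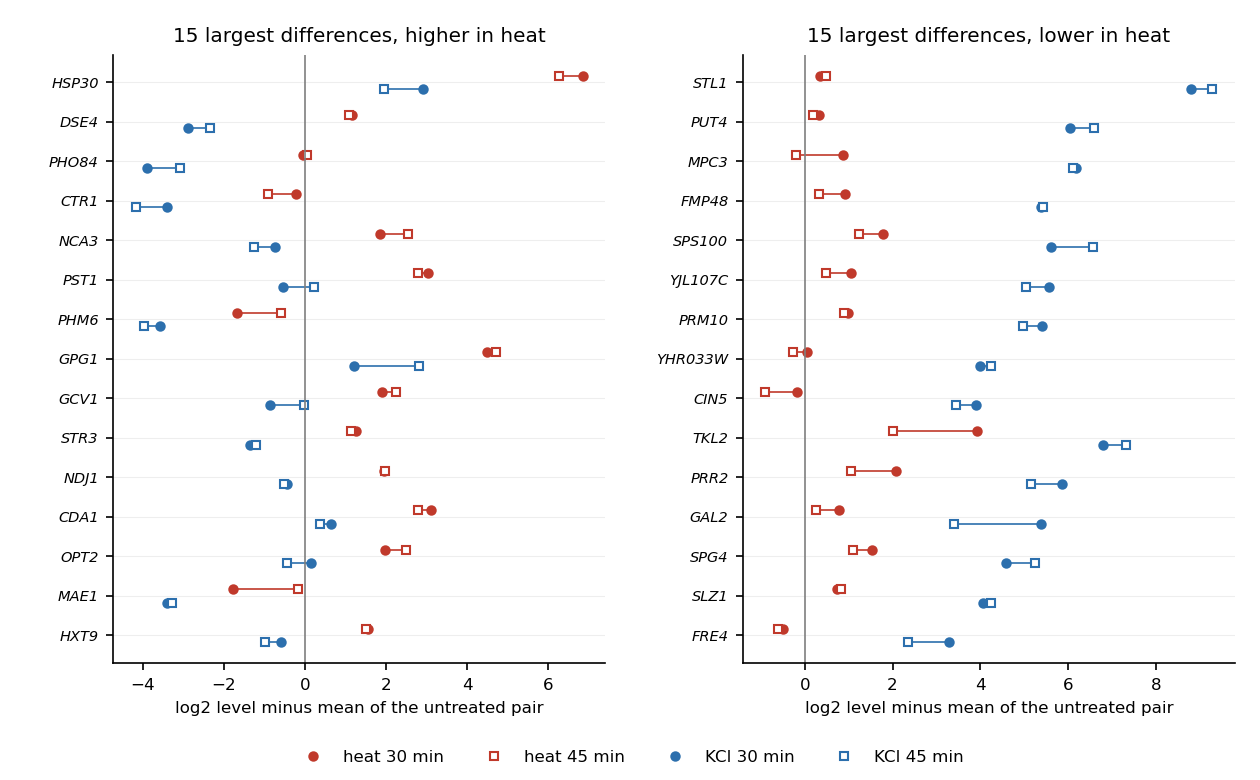
The 15 genes with the largest differences each way, as log2 level minus the mean of the untreated pair (grey line), with heat drawn above KCl in each row, circles for 30 min and squares for 45 min. STL1 lies near 0 in heat and near 9 in KCl, while PHO84 lies near 0 in heat and below -3 in KCl.

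Of 34 chaperone genes measured, 18 stood higher in heat than in KCl, where 15.4% of all genes did, and 0 were lower, also at an unadjusted p under 0.05 in limma. The list's median difference was 0.72, against 0.01 over all genes. In a fit of the 4 heat and KCl arrays alone, 12 members were higher, where 294 of all genes were. The count also fell in most fits that left out 1 array. HSP30, a heat shock protein of the plasma membrane, had the largest difference of all genes in this direction. It read 14.19 and 13.59 in heat and 10.24 and 9.28 in KCl, against 7.33 and 7.34 in untreated cells, so both stresses raised it, and heat stood above KCl by 17.5-fold (log2 4.13 ± 0.79, SE, n = 2 arrays each, limma adjusted p = 0.00941). Heat and KCl arrays did not overlap, and both KCl arrays stood above both untreated arrays.

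Helpers of the Hsp90 chaperone made up 4 of the next 5 members. AHA1, the activator of the Hsp90 ATPase, read 14.35 and 14.03 in heat and 12.42 and 12.29 in KCl, against 11.98 and 11.92 in untreated cells (log2 1.84 ± 0.17, adjusted p = 0.000956). Its relative HCH1 read 13.54 and 13.65 in heat and 12.27 and 11.77 in KCl (1.58 ± 0.20, adjusted p = 0.0029). For both genes the KCl arrays lay far closer to the untreated pair than the heat arrays did. The cyclophilin genes CPR6 and CPR7, whose products bind Hsp90, were 1.16 ± 0.14 and 1.24 ± 0.16 apart, and they reached that gap in different ways. CPR6 rose in heat by 1.79 ± 0.14 and in KCl by 0.63 ± 0.14 over untreated cells, while CPR7 fell in KCl (-1.67 ± 0.16) and did not pass in heat (-0.43 ± 0.16). SSA3, an inducible Hsp70 gene, was at 1.56 ± 0.36 (adjusted p = 0.0187), but its 2 heat arrays differed (13.12 and 11.85), and without the KCl array at 30 min it had an adjusted p of 0.0801. Its difference was 0.92 without heat at 30 min and 2.19 without heat at 45 min.

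Among the chaperones that hold or dissolve aggregates, the small heat shock protein gene HSP26 was called. It read 14.57 and 14.63 in heat and 13.44 and 13.74 in KCl, against 10.22 and 10.21 in untreated cells (1.01 ± 0.26, adjusted p = 0.0259). Its call was lost without either untreated array, either heat array or KCl at 30 min, with an adjusted p of up to 0.104, and the heat arrays lay near the brightest level of the arrays. HSP104, HSP42, SSA4 and SIS1 were not called. HSP104, the disaggregase, read 13.04 and 12.98 in heat and 12.85 and 13.59 in KCl (-0.21 ± 0.24, adjusted p = 0.526), and it had risen over untreated cells by 2.37 ± 0.24 and 2.58 ± 0.24. HSP42, another small heat shock protein gene, was at -0.19 ± 0.21, with rises of 4.34 ± 0.21 in heat and 4.52 ± 0.21 in KCl. SSA4, another inducible Hsp70 gene, was at 0.69 ± 0.28 (adjusted p = 0.0977). For the Hsp40 gene SIS1, the difference was 0.11 ± 0.15. Heat and KCl arrays of HSP104, HSP42 and SIS1 overlapped. Of the 18 called members, 7 rose in both stresses and 7 rose in heat with no call in KCl. The heat shock factor gene HSF1 was at -0.06 ± 0.23 (adjusted p = 0.872).

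Folding in the endoplasmic reticulum (ER) went the same way for 13 of 30 genes, with 0 lower (2 at an unadjusted p under 0.05 in limma) and a median difference of 0.51. ERO1, the oxidase that drives disulfide bond formation, read 13.31 and 13.01 in heat and 11.57 and 11.46 in KCl, against 11.30 and 11.14 in untreated cells (log2 1.64 ± 0.15, adjusted p = 0.000956). All 4 stressed arrays stood above the untreated pair, heat well above KCl. The ER Hsp40 genes SCJ1 and JEM1 were 1.32 ± 0.12 and 1.23 ± 0.20 higher, DER1, of the pathway that removes misfolded ER proteins, 1.03 ± 0.14, CNE1, the yeast calnexin gene, 0.93 ± 0.15, and FPR2, a peptidyl-prolyl isomerase gene, 0.86 ± 0.13 (adjusted p at most 0.00569 for the 5). SCJ1, JEM1, CNE1 and FPR2 had fallen in KCl against untreated cells (-0.80, -0.70, -0.57 and -0.92). Of the 13 genes, 6 fell in KCl with no call in heat, 4 rose in heat with no call in KCl, and 1 did both. A fit of the 4 heat and KCl arrays alone called 6 higher, and leaving out 1 array moved the count of 13 both ways. The sensor of unfolded ER protein, IRE1, was at 0.59 ± 0.19 (adjusted p = 0.0515), and HAC1, the factor it activates by splicing, at -0.38 ± 0.14 (adjusted p = 0.0793). The arrays do not measure splicing of HAC1.

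**Figure D2:**
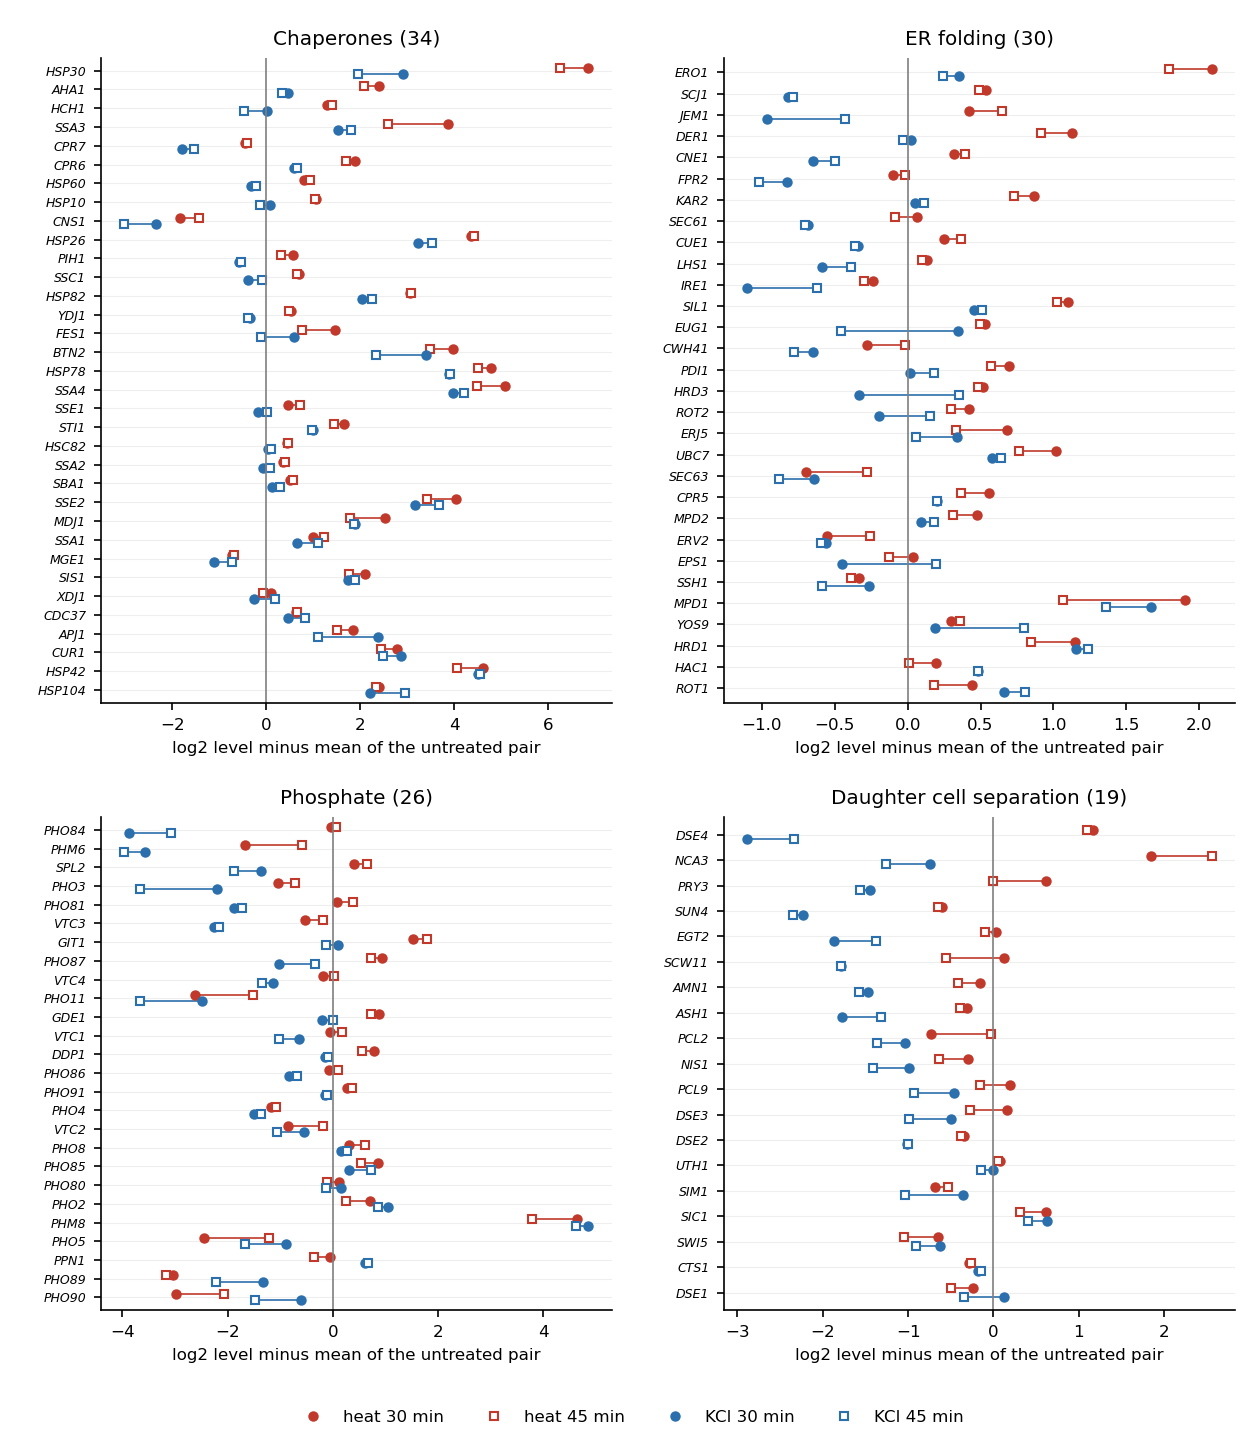
All measured members of 4 lists, as log2 level minus the untreated mean, with heat above KCl in each row, circles for 30 min and squares for 45 min, and genes ordered by their difference. In the chaperone panel HSP30, AHA1 and HCH1 stand further right in heat than in KCl, and in the phosphate and daughter panels the KCl points of the upper rows lie left of 0.

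The largest gap in the other direction was that of STL1, on the osmotic and glycerol list. STL1, the glycerol and proton symporter that takes up glycerol in salt, read 5.12 and 5.26 in heat and 13.58 and 14.07 in KCl, against 4.42 and 5.14 in untreated cells. Heat left it within reach of background, and KCl brought it close to the brightest genes. The difference was 398-fold (log2 -8.64 ± 0.27, adjusted p = 2.18e-05). GRE1 and SIP18, which encode related hydrophilins made under water loss, were lower in heat (-3.29 ± 0.51 and -3.03 ± 0.45, adjusted p = 0.00528 and 0.00474), although heat had raised them too, by 2.85 ± 0.51 and 3.14 ± 0.45 over untreated cells. Without KCl at 30 min their differences were -4.17 and -3.76, and without KCl at 45 min -2.41 and -2.30. GRE2, a methylglyoxal reductase gene, read 12.94 and 12.20 in heat and 14.13 and 14.37 in KCl (log2 -1.68 ± 0.26). PTP3, a phosphatase that acts on Hog1, fell in heat (-1.01 ± 0.24 against untreated cells) and rose in KCl (0.69 ± 0.24), a gap of -1.70 ± 0.24.

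The enzymes of glycerol synthesis differed less than the importer STL1. GPD1, the glycerol 3-phosphate dehydrogenase, and GPP2, the phosphatase of the next step, are named for this role after their values were seen. GPD1 read 13.90 and 13.35 in heat and 14.35 and 14.36 in KCl, against 11.42 and 11.51 in untreated cells (-0.73 ± 0.19, adjusted p = 0.0265). GPP2 read 13.70 and 13.52 in heat and 14.59 and 14.61 in KCl, against a mean of 12.06 in untreated cells (-0.99 ± 0.20, adjusted p = 0.0105). GPD1 rose by 2.16 ± 0.19 in heat and 2.89 ± 0.19 in KCl, and GPP2 by 1.55 ± 0.20 and 2.54 ± 0.20, and the KCl arrays of both lay close to the brightest level of the arrays. The call of GPD1 was lost without either untreated array, heat at 45 min or either KCl array (adjusted p of up to 0.0941), with a difference of -0.46 without heat at 45 min, where that of GPP2 was lost too (adjusted p = 0.057). The export channel gene FPS1 was at -0.06 ± 0.14 (adjusted p = 0.791) and HOG1, the kinase gene, at -0.17 ± 0.14 (adjusted p = 0.389). Over the list, 10 of 36 genes were lower in heat, 3 were higher, and the median difference was -0.19. DAK2, a dihydroxyacetone kinase gene (1.16 ± 0.17), and PTC2, a phosphatase gene (1.56 ± 0.24), were among the 3, and the third, SSK2, a kinase gene of the Hog1 pathway (0.80 ± 0.21), lost its call without any 1 of 5 arrays, with an adjusted p of up to 0.0966 without heat at 45 min and a difference of 0.49 without KCl at 30 min.

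Transporters and nutrient genes supplied many of the other large gaps. PUT4, the proline permease, read 6.45 and 6.30 in heat and 12.18 and 12.72 in KCl, against 6.10 and 6.14 in untreated cells (67.2-fold lower in heat, log2 -6.07 ± 0.23, adjusted p = 4.7e-05). Heat arrays lay next to the untreated pair and KCl arrays far above. The first enzyme of proline breakdown, PUT1, went the other way. PUT1 read 10.49 and 10.23 in heat and 8.29 and 8.41 in KCl, against 7.99 and 7.94 in untreated cells (log2 2.01 ± 0.29, adjusted p = 0.00436). The second enzyme gene, PUT2, was lower in heat (-0.87 ± 0.17, adjusted p = 0.0103, and 0.0559 without heat at 45 min). GLN1, glutamine synthetase, was 2.11 ± 0.31 higher in heat, and passed against untreated cells in KCl (-1.40 ± 0.31) but not in heat (0.71 ± 0.31). Of 39 genes of proline and other nitrogen use, 11 were higher in heat and 7 lower. These counts moved to 7 higher without either untreated array, 5 higher and 3 lower without heat at 45 min, 6 higher without heat at 30 min, and 7 higher without KCl at 30 min.

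Phosphate genes were higher in heat for 14 of 26 and lower for 3, with a median of 0.78, and 8 of the 14 fell in KCl with no call in heat. PHO84, the high-affinity phosphate transporter, read 13.95 and 14.04 in heat and 10.11 and 10.91 in KCl, against 13.96 and 14.02 in untreated cells. Heat and untreated arrays were nearly level, and KCl was 11.2-fold below heat (log2 3.49 ± 0.25, adjusted p = 0.000506). PHM6, a gene of the phosphate response, read 8.17 and 9.25 in heat and 6.28 and 5.87 in KCl, against 9.85 and 9.83 (2.64 ± 0.34, adjusted p = 0.00347). SPL2, which restrains low-affinity uptake, was 2.15 ± 0.34 higher in heat, PHO81, the inhibitor of the Pho80 and Pho85 kinase, 2.03 ± 0.16, and VTC3, a subunit of the polyphosphate polymerase, 1.84 ± 0.15 (adjusted p at most 0.00548 for the 3). For PHO81 and VTC3 the heat arrays did not pass against the untreated pair (0.23 ± 0.16 and -0.36 ± 0.15), and KCl did (-1.80 ± 0.16 and -2.20 ± 0.15). The acid phosphatase gene PHO3 was 2.05 ± 0.47 higher (adjusted p = 0.0184), with an adjusted p of 0.0887 without heat at 45 min and a difference of 2.78 without KCl at 30 min and 1.31 without KCl at 45 min.

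Members of the phosphate list did not all move with PHO84. The low-affinity transporter gene PHO90 (-1.48 ± 0.36) and the sodium-dependent one, PHO89 (-1.33 ± 0.31), were lower in heat, and both had fallen in each stress (PHO90 -2.52 ± 0.36 in heat and -1.04 ± 0.36 in KCl, PHO89 -3.11 ± 0.31 and -1.78 ± 0.31). PPN1, a polyphosphatase gene, was the third (-0.84 ± 0.17). PHO90 lost its call without heat at 30 min (adjusted p = 0.0775) or KCl at 30 min (0.0844), PHO89 without either heat array or KCl at 30 min (up to 0.0851, with a difference of -0.88 in the last), and PPN1 without heat at 45 min (0.0619). PHO5, the repressible acid phosphatase, was at -0.55 ± 0.41 (adjusted p = 0.334), with its difference at -1.56 at 30 min and 0.46 at 45 min. PHM8, a phosphatase gene that carries the name of the same response, rose in both stresses (4.22 ± 0.27 in heat and 4.74 ± 0.27 in KCl) and was at -0.52 ± 0.27 between them. The regulator genes PHO4 (0.31 ± 0.15), PHO80 (-0.01 ± 0.15) and PHO85 (0.19 ± 0.18) did not pass.

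Among metal genes with the largest differences, copper transport was higher in heat and the siderophore iron genes FRE4 and FIT1 were lower. CTR1, the high-affinity copper transporter, read 11.85 and 11.15 in heat and 8.66 and 7.89 in KCl, against 12.04 and 12.08 in untreated cells (log2 3.22 ± 0.30, adjusted p = 0.00106). It did not pass against the untreated pair in heat (-0.56 ± 0.30) and fell far below it in KCl (-3.78 ± 0.30). FRE7, a ferric reductase relative that responds to copper, was 1.65 ± 0.17 higher in heat and the manganese transporter gene SMF1 1.24 ± 0.19. In contrast, FRE4, a siderophore iron reductase gene, read 7.10 and 6.98 in heat and 10.88 and 9.94 in KCl, against 7.57 and 7.61 (-3.37 ± 0.28, adjusted p = 0.000714). FIT1, a cell wall mannoprotein for siderophore iron, read 7.96 and 7.54 in heat and 10.75 and 10.61 in KCl (-2.93 ± 0.23), and FET3, the iron uptake oxidase, 11.45 and 11.00 in heat and 12.75 and 13.70 in KCl (-2.00 ± 0.30). For FRE4 and FIT1 the heat arrays lay under the untreated pair and the KCl arrays above it. FIT3, which shares its name with FIT1, went the other way. It read 12.29 and 12.01 in heat and 11.33 and 11.65 in KCl, against 12.05 and 11.99 in untreated cells (0.66 ± 0.18, limma adjusted p = 0.029). The iron regulator gene AFT1 was at -0.12 ± 0.20 (adjusted p = 0.689). Of 43 iron and copper genes, 5 were higher in heat and 10 lower, with 4 lower without heat at 45 min, 3 higher without heat at 30 min and 8 higher without KCl at 45 min.

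Sugar transporters were lower in heat for 7 of 21 genes and higher for 2. GAL2, the galactose permease, read 6.41 and 5.89 in heat and 11.01 and 9.03 in KCl, against 5.70 and 5.57 in untreated cells (log2 -3.87 ± 0.55, adjusted p = 0.00412, with -2.88 without KCl at 30 min and -4.86 without KCl at 45 min). HXT5, a transporter of moderate affinity made by slow-growing cells, was at -2.77 ± 0.50, with -1.70 at 30 min and -3.84 at 45 min, and -3.59 without heat at 30 min and -1.95 without heat at 45 min. HXT1, the low-affinity glucose transporter, read 11.80 and 12.05 in heat and 13.51 and 14.01 in KCl, against 12.28 and 12.21 (-1.84 ± 0.19). HXT1 was raised by KCl, whereas HXT2, a high-affinity transporter, fell in both stresses and fell further in heat (-2.68 ± 0.36). MTH1, a repressor of these genes, was at -1.98 ± 0.19. HXT9, of the hexose transporter family, was the exception among the large differences, at 8.05 and 8.01 in heat and 5.91 and 5.53 in KCl, against 6.58 and 6.43 (2.31 ± 0.19, adjusted p = 0.000714). The other gene higher in heat, HXT11 (0.70 ± 0.21, adjusted p = 0.0427), lost its call in 6 of the 8 fits that left out 1 array, and without KCl at 45 min 4 transporters of the list were higher, while 1 was without either untreated array, either heat array or KCl at 30 min.

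Genes for carbon sources other than glucose were lower in heat for 13 of 35 and higher for 3, with a median of -0.59. MPC3, the mitochondrial pyruvate carrier subunit used in respiration, read 8.99 and 7.91 in heat and 14.30 and 14.22 in KCl, against 8.12 and 8.09 in untreated cells (56.1-fold, log2 -5.81 ± 0.31, adjusted p = 0.000127). KCl brought it to the top of the array's range, with heat arrays on either side of the untreated pair. ICL1, isocitrate lyase of the glyoxylate cycle, read 7.47 and 7.44 in heat and 10.12 and 9.83 in KCl, against 7.36 and 7.40 (-2.52 ± 0.16). The acetate transporter gene ADY2 (-2.14 ± 0.25), the lactate transporter gene JEN1 (-1.93 ± 0.26) and REG2, a phosphatase regulator (-2.37 ± 0.18), followed, and MDH2, the cytosolic malate dehydrogenase, fell in heat and rose in KCl (-1.79 ± 0.15). PCK1, the enzyme that commits carbon to glucose synthesis, was not of this pattern. PCK1 read 8.64 and 8.40 in heat and 7.40 and 7.58 in KCl, against 7.38 and 7.47 (1.03 ± 0.18, adjusted p = 0.00714), so heat raised it and KCl left it at the untreated level. ICL2, a mitochondrial relative of ICL1 in the methylcitrate cycle, was also higher in heat (1.69 ± 0.17), as was YAT1, a carnitine acetyltransferase gene (1.52 ± 0.18). FBP1, fructose bisphosphatase, did not pass (-0.61 ± 0.20, adjusted p = 0.0522). Leaving out heat at 45 min left 8 genes of the list lower, and without KCl at 45 min 5 were higher.

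Storage carbohydrate and fat breakdown genes were also called lower in heat more than higher. Of 21 trehalose and glycogen genes, 7 were lower in heat and 0 higher, also at an unadjusted p under 0.05 in limma, and of 43 peroxisome and fatty acid oxidation genes, 15 were lower and 2 higher. GSY1, the minor glycogen synthase, read 10.32 and 9.45 in heat and 12.61 and 12.41 in KCl, against 8.11 and 8.27 in untreated cells (-2.63 ± 0.28, adjusted p = 0.00156), while the major one, GSY2, was at -0.58 ± 0.27 (adjusted p = 0.139). PGM1, a phosphoglucomutase gene, fell in heat (-1.25 ± 0.18) and was at -1.27 ± 0.18 between the stresses. The trehalose synthase gene TPS1 read 14.22 and 13.77 in heat and 14.14 and 14.54 in KCl, with overlapping arrays (-0.34 ± 0.20). In the peroxisome, the fatty acid isomerase gene ECI1 (-1.14 ± 0.20) and the ATP carrier gene ANT1 (-1.14 ± 0.14) were lower in heat, and SPS19, a dienoyl-CoA reductase gene, was higher (1.32 ± 0.21). POT1, the thiolase, was at -2.28 ± 0.51 with -1.05 at 30 min and -3.51 at 45 min, an adjusted p of 0.0851 without heat at 45 min and 0.052 without KCl at 45 min, and differences between -2.93 (without KCl at 30 min) and -1.62 (without KCl at 45 min). These counts leaned on single arrays. With heat at 45 min left out, 2 storage genes and 4 peroxisome genes were lower. Without KCl at 45 min 3 storage genes were lower and 1 higher, and 4 peroxisome genes higher, and without either untreated array 4 storage and 9 peroxisome genes were lower.

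**Figure D3:**
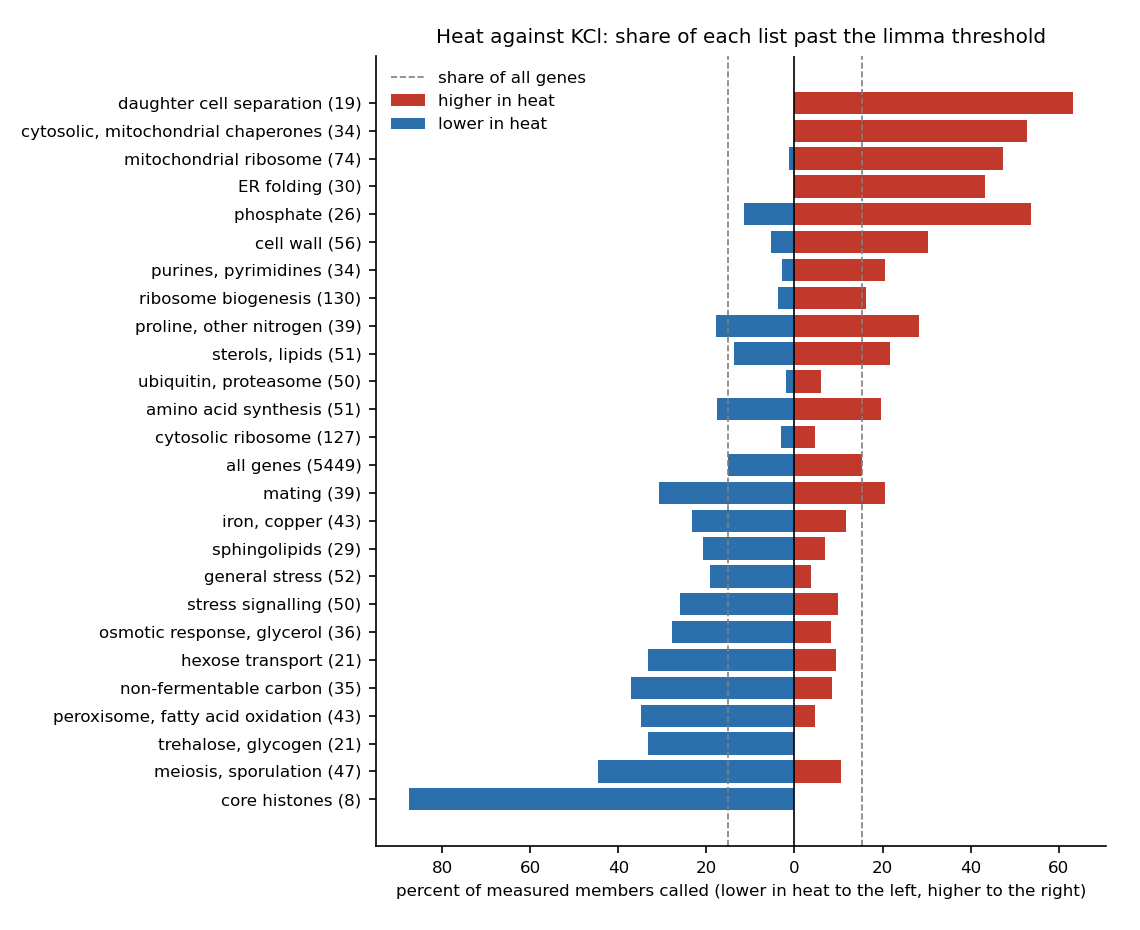
Percent of measured members (number in brackets) of 25 lists and of all genes that were called higher in heat (right, red) or lower in heat (left, blue), with the share of all genes as dashed lines at 15.4% and 15.2%. Daughter cell separation (63.2% higher) and core histones (87.5% lower) are the ends of the order. The list labelled core histones also holds the variant histone gene HTZ1.

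In daughter cell separation, a programme that dissolves the septum after division, 12 of 19 genes were higher and 0 lower, also at an unadjusted p under 0.05 in limma, with a median of 0.73. DSE4, the daughter-specific glucanase, read 12.31 and 12.25 in heat and 8.27 and 8.82 in KCl, against 11.18 and 11.13 in untreated cells. Every heat array stood above, and every KCl array below, both untreated arrays, and the gap was 13.3-fold (log2 3.74 ± 0.20, adjusted p = 0.000124). NCA3, of the same SUN family as the septum gene SUN4, read 9.99 and 10.69 in heat and 7.40 and 6.88 in KCl, against 8.10 and 8.18 (3.20 ± 0.26, adjusted p = 0.000714). PRY3, a cell wall protein gene of daughter cells (1.81 ± 0.21), SUN4 (1.66 ± 0.13), the septum gene EGT2 (1.59 ± 0.25) and the glucanase gene SCW11 (1.57 ± 0.22) followed, each having fallen in KCl against untreated cells (PRY3 -1.51 ± 0.21, SUN4 -2.29 ± 0.13, EGT2 -1.62 ± 0.25 and SCW11 -1.78 ± 0.22). Of the 12, 9 fell in KCl with no call in heat. With the 4 heat and KCl arrays alone 8 were higher, and most fits that left out 1 array also called fewer than 12. CTS1, the chitinase that finishes separation, did not pass (-0.12 ± 0.13, adjusted p = 0.524), and nor did DSE1 (-0.26 ± 0.18) or the regulator gene SWI5 (-0.08 ± 0.19).

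Cell wall genes were higher in heat for 17 of 56 and lower for 3. PST1, a cell wall mannoprotein gene and a common readout of the cell wall integrity pathway, read 13.59 and 13.34 in heat and 10.02 and 10.78 in KCl, against 10.44 and 10.66 in untreated cells (8.34-fold, log2 3.06 ± 0.27, adjusted p = 0.000878). KCl arrays lay on either side of the untreated pair and both heat arrays far above. RLM1, the transcription factor of that pathway, was 1.21 ± 0.20 higher, and so were the glucanase gene EXG2 (1.53 ± 0.13), the mannoprotein gene TIP1 (1.60 ± 0.22) and UTR2, a chitin transglycosylase gene (1.75 ± 0.14), of which UTR2 fell in both stresses. PIR3, a wall protein gene, rose in both stresses and was 1.36 ± 0.35 higher in heat, with an adjusted p of 0.088 and 0.0903 without the 30 min or the 45 min heat array and a difference of 0.74 without KCl at 30 min and 1.99 without KCl at 45 min. The pathway's kinase gene SLT2 was at 0.54 ± 0.22 (adjusted p = 0.104). In the fit without heat at 45 min 11 wall genes were higher and 0 lower, without heat at 30 min 5 were lower, and without KCl at 30 min or either untreated array 1 was lower.

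Histone genes were lower in heat for 7 of 8, with a median of -0.71. The 7 include HTZ1, for the variant histone H2A.Z, which was at -0.53 ± 0.14. HTZ1 fell in both stresses, by -1.02 ± 0.14 in heat and -0.49 ± 0.14 in KCl. HHT1, for histone H3, read 12.20 and 11.90 in heat and 13.12 and 13.42 in KCl, against 13.34 and 13.22 in untreated cells (-1.22 ± 0.16, adjusted p = 0.00362). KCl left it at the untreated level and heat lowered it. HTB2, for H2B, read 11.74 and 11.58 in heat and 12.36 and 12.75 in KCl, against 12.85 and 12.75 (-0.89 ± 0.16, adjusted p = 0.00849). The other copy of H3, HHT2, was at -0.30 ± 0.22 and its arrays did not overlap either (12.41 and 12.43 in heat, 12.46 and 12.99 in KCl). The probe sets of HHF1 and HTA2 can take up signal from a near-identical copy. Without heat at 45 min 2 histone genes passed, and HTA1, HHF1 and HTA2 then had an adjusted p between 0.0679 and 0.076.

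Mitochondrial ribosome genes were higher in heat for 35 of 74 and lower for 1, with a median of 0.45. IMG1, a large subunit gene, read 12.02 and 12.29 in heat and 9.98 and 10.76 in KCl, against 11.80 and 11.89 in untreated cells (1.79 ± 0.25, adjusted p = 0.00379). MRPL4 (1.30 ± 0.18) and MRPL19 (1.18 ± 0.21) of the large subunit and RSM27 (1.14 ± 0.14) and MRPS8 (1.02 ± 0.15) of the small subunit followed. In all 5 the heat arrays lay above both KCl arrays, which the rule for naming genes requires. Of the 35, 16 fell in KCl with no call in heat, 6 rose in heat with no call in KCl, 4 did both and 9 passed in neither. Without heat at 45 min 23 were higher and 0 lower, and without KCl at 45 min 2 were lower.

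Genes of meiosis and mating, programmes that haploid a cells growing alone do not run, also differed. Of 47 meiosis and sporulation genes, 21 were lower in heat and 5 higher, with a median of -0.63. SPS100, a spore wall gene, read 7.66 and 7.11 in heat and 11.50 and 12.46 in KCl, against 5.98 and 5.78 in untreated cells (-4.59 ± 0.32, adjusted p = 0.000467). SGA1, a glucoamylase gene of sporulation (-2.23 ± 0.23), REC102, for meiotic recombination (-2.26 ± 0.24), DIT2, of the spore wall (-1.93 ± 0.25), and SPO13, a meiosis I regulator (-1.69 ± 0.14), were lower too. CDA1, a chitin deacetylase of the spore wall, was higher, at 7.92 and 7.62 in heat and 5.48 and 5.20 in KCl, against 4.96 and 4.69 (2.44 ± 0.24, adjusted p = 0.00119). The master regulator genes of this programme did not pass, IME1 at -0.15 ± 0.19 and NDT80 at 0.25 ± 0.21, so the list did not move as a unit. Many of these genes are dim: the list's median level was between 6.93 and 7.27 on the 4 arrays. Leaving out heat at 45 min left 8 lower, and leaving out KCl at 30 min left 11.

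In the mating list, 12 of 39 genes were lower in heat and 8 higher. PRM1, a membrane fusion gene of mating cells, read 6.49 and 6.87 in heat and 9.09 and 8.20 in KCl, against 8.26 and 8.24 in untreated cells (-1.96 ± 0.29, adjusted p = 0.00459). FUS1 (-1.10 ± 0.22), FIG1 (-1.08 ± 0.22), the agglutinin anchor gene AGA1 (-1.19 ± 0.14) and the kinase gene FUS3 (-0.91 ± 0.13), all pheromone-induced, were lower as well and had fallen against untreated cells in heat. AGA1 and FUS3 had also fallen in KCl (-1.35 ± 0.14 and -0.50 ± 0.13). PRM8, also lower in heat (-1.79 ± 0.22), had instead risen in both stresses, by 1.78 ± 0.22 in heat and 3.57 ± 0.22 in KCl. Of the 12 lower genes, 6 fell in heat with no call in KCl and 3 fell in both. Another 2 rose in both, and 1 rose in KCl with no call in heat. FAR1, of the same list, was higher in heat (0.92 ± 0.28, limma adjusted p = 0.0431), having fallen by less in heat (-2.72 ± 0.28) than in KCl (-3.65 ± 0.28). The pheromone genes themselves went opposite ways: MFA2 was 1.20 ± 0.19 higher in heat and MFA1 was at -0.76 ± 0.18, though they encode the same a-factor. MFA1 was chosen after its values were seen, and its adjusted p was 0.0203, with 0.082 without heat at 30 min and 0.0679 without KCl at 30 min. STE3, the receptor of α cells, read 8.14 and 8.02 in heat and 7.11 and 7.07 in KCl, against 6.15 and 6.48 (0.99 ± 0.17, adjusted p = 0.00628), while the other 3 α-cell markers did not pass. PRM5, a pheromone-regulated gene that also answers cell wall stress, was 1.47 ± 0.15 higher. Leaving out 1 array moved the higher count to 3 (heat or KCl at 45 min) or 4 (either untreated array) and the lower count to 7 (KCl at 30 min).

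Regulators of stress signalling were lower in heat for 13 of 50 and higher for 5. CIN5, a transcription factor of salt tolerance, read 8.66 and 7.94 in heat and 12.75 and 12.28 in KCl, against 8.85 and 8.83 in untreated cells (18.6-fold, log2 -4.21 ± 0.55, adjusted p = 0.00347). CMK1, a calmodulin-dependent kinase gene, was at -1.29 ± 0.20. RCN1, a calcineurin regulator (0.88 ± 0.14), and IRA1, a brake on Ras (1.23 ± 0.23), were higher in heat. The general stress factor gene MSN4 was at -0.48 ± 0.23 and did not pass. CTT1, a cytosolic catalase gene that such factors drive, was at -2.15 ± 0.83 (limma adjusted p = 0.0888) with 12.73 and 11.35 in heat and 13.94 and 14.43 in KCl. The heat and KCl arrays of CTT1 did not overlap, and its standard error also holds the peroxide and untreated arrays, so it is not shown to be level between the stresses. HSP12, their best-known target gene, read 14.69 and 14.70 in heat and 14.65 and 14.74 in KCl, at the ceiling of the arrays. Without heat at 45 min 6 signalling genes were lower, and without KCl at 45 min 8 were higher.

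Some genes left the untreated level in opposite directions, 36 up in heat and down in KCl and 19 the other way. Beside DSE4, NCA3, HXT9, TIP1 and ICL2, the largest gaps of the first kind were those of NDJ1, DLD3 and PDR12. NDJ1, a telomere protein of meiosis, read 7.87 and 7.89 in heat and 5.47 and 5.39 in KCl, against a mean of 5.92 in untreated cells (2.45 ± 0.16, adjusted p = 0.00034). DLD3, of the D-lactate dehydrogenase family, read 12.43 and 12.26 in heat and 10.15 and 10.46 in KCl, against 11.21 and 11.25 (2.04 ± 0.18). PDR12, the exporter of weak organic acids, read 12.29 and 12.15 in heat and 10.68 and 10.22 in KCl, against 10.91 and 11.25 (1.77 ± 0.20). The untreated pair lay between the stresses in all 3 genes.

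In the opposite group, NCE103, the carbonic anhydrase, read 10.68 and 10.95 in heat and 13.84 and 13.56 in KCl, against 12.04 and 12.01 in untreated cells (-2.88 ± 0.24, adjusted p = 0.000714). SGF11, a subunit of the SAGA deubiquitination module, read 9.38 and 9.63 in heat and 12.02 and 11.74 in KCl, against 9.99 and 9.96 (-2.37 ± 0.15), so most of its gap came from KCl. NRD1, an RNA-binding factor that ends short transcripts, read 9.78 and 10.11 in heat and 12.06 and 11.88 in KCl, against 11.19 and 11.24 (-2.02 ± 0.16), with the larger part from heat. MGA2, an activator of the fatty acid desaturase gene OLE1, was at -1.33 ± 0.14, and OLE1 itself, which fell in both stresses, at -1.16 ± 0.18. RQC1, of ribosome quality control (-1.20 ± 0.12), and YLR108C (-2.73 ± 0.37) complete the 8 with MDH2 and PTP3. All 16 named genes of both kinds kept the call of their heat minus KCl difference in each fit that left out 1 array, while the naming rule had fixed its direction.

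**Figure D4:**
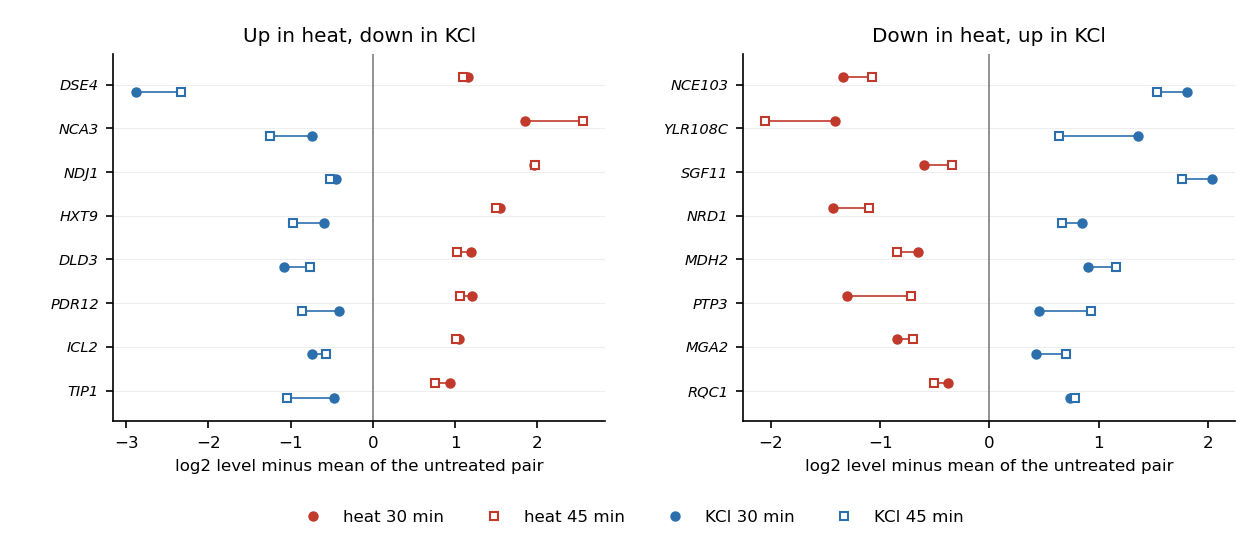
The 8 genes with the largest differences among those raised by heat and lowered by KCl (left) and among those lowered by heat and raised by KCl (right), as log2 level minus the untreated mean (grey line), with heat above KCl in each row, circles for 30 min and squares for 45 min. Each gene has its heat and KCl points on opposite sides of the line.

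The arrays at 30 and 45 min also set the stresses apart, and this is given as values, since each stress and time has 1 array. The heat array at 45 min lay closer to untreated cells than the one at 30 min, and the KCl array slightly further away. Whether this comes from the times or from single arrays was not tested. In heat, 1543 genes at 30 min and 1092 at 45 min were at least 2-fold from the untreated mean, and in KCl 1618 and 1702. Across genes the changes from 30 to 45 min in heat and in KCl had r = -0.36, over 5449 genes that are not independent replicates and come from 4 arrays. Between the stresses, 867 genes (15.9%) were at least 2-fold apart at 30 min, 403 higher in heat (7.40%) and 464 lower (8.52%), and 818 (15.0%) at 45 min, 417 higher (7.65%) and 401 lower (7.36%). At both times and in the same direction 338 genes were that far apart, and 30 were so in opposite directions.

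Of those 30 genes, 29 were lower in heat at 30 min and higher at 45 min, and 14 of the 29 are on the ribosome biogenesis list. That list holds 130 of the 5449 genes. URA7, the CTP synthase, read 8.06 and 10.33 in heat at 30 and 45 min and 10.63 and 8.62 in KCl, against 13.08 and 12.97 in untreated cells. Its difference was -2.57 at 30 min and 1.72 at 45 min. YTM1, for assembly of the large ribosomal subunit, read 7.97 and 9.85 in heat and 10.10 and 7.84 in KCl (-2.13 and 2.01). Both genes were higher at 45 min than at 30 min in heat and lower in KCl. The adenine deaminase gene AAH1, the helicase gene HCA4, the large-subunit assembly gene NOP7 and RPA135, a subunit of RNA polymerase I, crossed in the same way, with differences between -2.36 and -1.80 at 30 min and between 1.45 and 1.87 at 45 min. LSO1, a small gene linked to iron, was the 1 gene that crossed the other way, at 7.16 and 5.81 in heat and 5.87 and 8.37 in KCl.

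Over the whole ribosome biogenesis list of 130 genes the median difference was -0.37 at 30 min and 1.29 at 45 min, with 40 genes above 0 at 30 min and 120 at 45 min. Of all 5449 genes, 2785 lay above 0 at 30 min and 2690 at 45 min. Against untreated cells the medians were -2.74 and -1.83 in heat and -2.32 and -3.16 in KCl. The fit over both times called 21 higher and 5 lower in heat, and this count turned on single arrays: without heat at 30 min 50 were higher and 2 lower, without heat at 45 min 6 and 8, without KCl at 30 min 25 and 2, without KCl at 45 min 11 and 11, and without either untreated array 14 were higher. Among the called, RRS1, for assembly of the large subunit, read 7.90 and 8.99 in heat and 6.63 and 6.34 in KCl, against 11.38 and 11.42 in untreated cells (1.96 ± 0.36, adjusted p = 0.00874). UTP20 (1.73 ± 0.28) and UTP18 (1.66 ± 0.29), of the small subunit processome, were higher too. DBP2, an RNA helicase, was the largest difference the other way, at 7.08 and 6.87 in heat and 10.35 and 8.99 in KCl, against 13.07 and 13.03 (-2.70 ± 0.38, adjusted p = 0.00412), with -2.02 without KCl at 30 min and -3.37 without KCl at 45 min.

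Ribosomal protein genes followed the same order in time with smaller steps. Over 127 cytosolic ribosomal protein genes the median difference was -0.66 at 30 min and 0.16 at 45 min, and 6 were higher and 4 lower over both times. Without heat at 45 min 25 were lower and 3 higher, and without KCl at 45 min 8 were lower, while 2 were lower without heat at 30 min, either untreated array or either peroxide array of the fit, and 1 without KCl at 30 min. Nucleotide synthesis genes had medians of -0.48 and 0.60, with 7 of 34 higher and 1 lower. ADE17, of purine synthesis, was 1.94 ± 0.28 higher and SHM2, a serine hydroxymethyltransferase gene, 1.85 ± 0.26. The counts of nucleotide genes were 4 higher and 2 lower without heat at 45 min, 10 lower without KCl at 45 min, and 0 lower without either untreated array, heat at 30 min or KCl at 30 min.

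The general stress, trehalose and glycogen, and ubiquitin and proteasome lists had medians that crossed in the opposite sense. Their counts above 0 stand against 2785 of all 5449 genes at 30 min and 2690 at 45 min. The general stress list of 52 genes had a median difference of 0.17 at 30 min and -0.59 at 45 min, with 31 genes above 0 at 30 min and 6 at 45 min, and 51 of 52 had risen in each stress. It counted 2 genes higher and 10 lower in heat, and 19 lower without heat at 30 min, 3 without heat at 45 min and 6 without KCl at 45 min. On the high side the count was 4 without KCl at 45 min, 1 without heat at 30 min or either untreated array, and 0 without KCl at 30 min. TKL2, a transketolase gene, read 10.64 and 8.73 in heat and 13.51 and 14.02 in KCl, against 6.84 and 6.58 in untreated cells (16.9-fold, log2 -4.08 ± 0.55, adjusted p = 0.00361), with -5.04 without heat at 30 min and -3.12 without heat at 45 min. OM45, a mitochondrial outer membrane gene, was at -1.52 ± 0.29. The trehalose and glycogen list had a median difference of 0.12 at 30 min, with 12 of 21 genes above 0, and -0.89 at 45 min, with 0 above 0, and 19 of 21 had risen in each stress. In the ubiquitin and proteasome list the medians were 0.34 and -0.30, with 41 of 50 genes above 0 at 30 min and 5 at 45 min, and 18 of the 50 had risen in heat and 21 in KCl. The chaperone list, with 30 of 34 genes raised in heat and 18 in KCl, did not cross, at medians of 0.76 and 0.64.

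**Figure D5:**
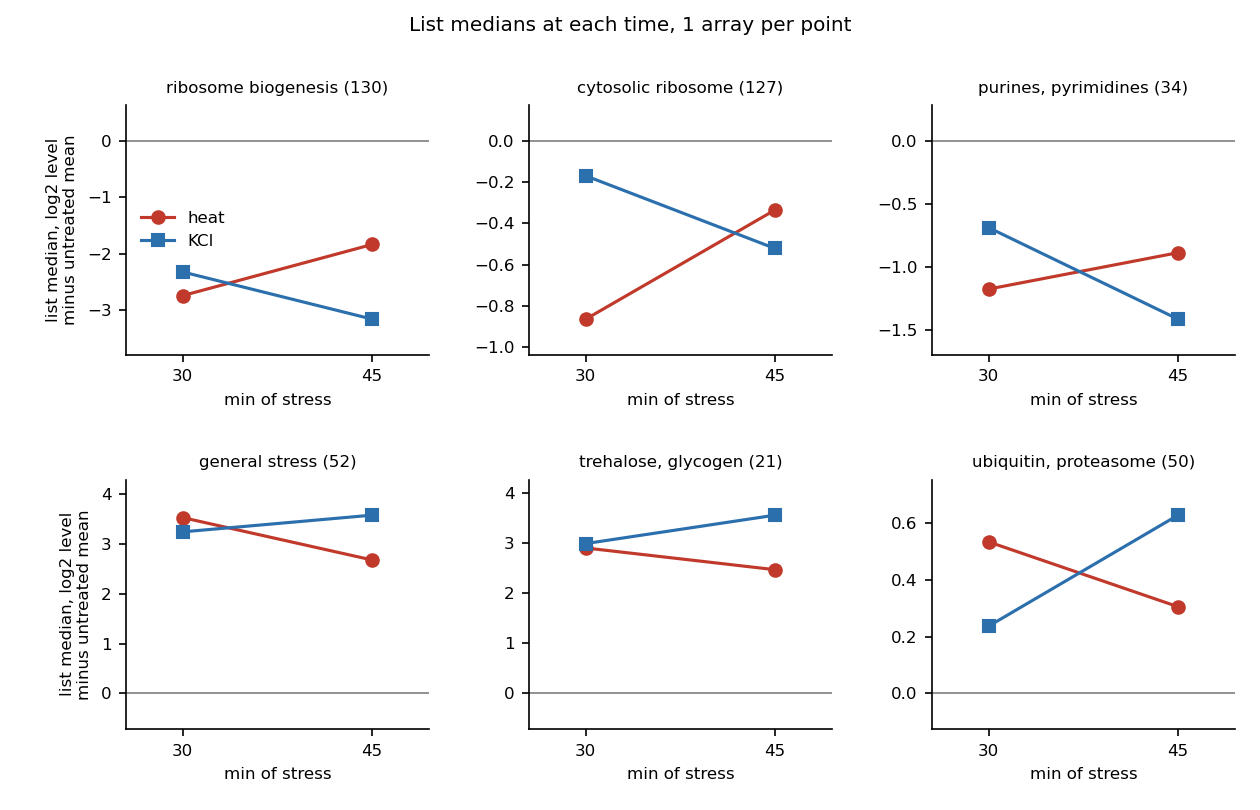
Median log2 level minus the untreated mean of 6 lists (number of genes in brackets) at 30 and 45 min, for heat (red circles) and KCl (blue squares), with 1 array per point and the vertical scale set for each panel. In the upper row heat is below KCl at 30 min and above it at 45 min, and in the lower row heat is below KCl at 45 min.

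Further genes among the largest differences belong to none of the lists described above. GCV1, a subunit of the glycine cleavage system, read 12.41 and 12.75 in heat and 9.64 and 10.49 in KCl, against 10.48 and 10.54 in untreated cells (2.52 ± 0.35, adjusted p = 0.00379). OPT2, an oligopeptide transporter gene (2.37 ± 0.23), and GPG1, of G protein signalling (2.59 ± 0.48), were also higher, with 1.78 for GPG1 without KCl at 30 min and 3.39 without KCl at 45 min. MAE1, the mitochondrial malic enzyme, was at 2.36 ± 0.49 (adjusted p = 0.0123), with 9.88 and 11.48 in heat and a difference of 3.16 without heat at 30 min and 1.56 without heat at 45 min, and it had an adjusted p of 0.0528 without KCl at 30 min. STR3, a cystathionine β-lyase gene, was at 2.47 ± 0.70 (adjusted p = 0.0348) and lost its call without any 1 of the untreated, heat or KCl arrays. Its heat arrays (9.16 and 9.03) and KCl arrays (6.54 and 6.69) lay far apart, and each pair lay close together. The wide standard error of STR3 therefore came mainly from other arrays of the shared fit.

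Among the 15 genes furthest below KCl in heat were also FMP48, a putative kinase gene, PRR2, a kinase gene linked to pheromone signalling, PRM10, SPG4, SLZ1 and the uncharacterised YJL107C and YHR033W. FMP48 read 9.05 and 8.47 in heat and 13.53 and 13.57 in KCl, against 8.21 and 8.08 in untreated cells (27.7-fold, log2 -4.79 ± 0.50, adjusted p = 0.00156). PRM10 read 8.70 and 8.61 in heat and 13.13 and 12.70 in KCl, against 7.71 and 7.73 (-4.26 ± 0.20), and YHR033W read 10.02 and 9.70 in heat and 13.96 and 14.21 in KCl, against 10.01 and 9.94 (-4.23 ± 0.20). In each of the 3 both KCl arrays lay far above every heat and untreated array. PRR2 (-3.94 ± 0.35), SPG4 (-3.59 ± 0.29), SLZ1 (-3.37 ± 0.15) and YJL107C (-4.53 ± 0.24) had risen in both stresses, and more in KCl.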

How the data were processed

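The arrays were Affymetrix Yeast 2.0 GeneChips, read as poly(T)-primed and biotin-labelled cRNA of total RNA, per the labels' protocols. The authors deposited log2 values per probe set, normalized with RMA per the submitters' processing notes, whose version is not given in the sources used here. They also deposited log2 ratios to time 0, used here as an alternative. Of 10928 probe sets, 5498 name 1 yeast gene in the platform annotation and gave 5449 genes, with the brightest probe set kept for the 47 genes with several. Probe sets of another species set the background, at their 95th percentile.

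A single linear model (limma 3.58.1 under R 4.3.3, with empirical Bayes moderation) used 8 arrays with 1 level per group: heat, KCl, 0.66 mM peroxide at 30 and 45 min, and untreated. It had 4 residual degrees of freedom, and Benjamini-Hochberg adjustment ran over 5449 genes. Differences are heat minus KCl, ± the standard error of the fit, and calls have an adjusted p under 0.05. The precision is limited by 2 arrays per group, and at 1 array per stress and time values are given with no test. In 5 simulated sets of 5449 genes with 200 changed, the heat against KCl fit recovered 70% of log2 changes of 1 and 94.8% of changes of 2, and 5.62% of calls were false. The simulated noise was independent, with 1 SD per gene for all groups, and only heat was changed. In the data 30.6% of genes were called, and arrays differed by an SD of 0.142 in the untreated pair, 0.411 in heat and 0.468 in KCl. The simulated rates therefore do not give the error rates of the calls reported here.

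Named genes are the 15 largest differences each way among called genes whose arrays do not overlap and keep their sign at both times, the 8 largest each way among those called in opposite directions against untreated cells, up to 6 called members each way of each list, the 8 largest changes of the difference with time each way, and key members that did not pass. The members, the 37 gene lists and this rule were chosen with earlier results of these data known. Alternatives were other normalizations, filters, variance settings, probe set averages, other sets of arrays, a block for time, and each array left out in turn. The main fit did not pair the arrays by time. Deviations at 45 min correlated at -0.362 between heat and KCl across genes, which cannot show whether arrays of the same time share a culture or batch. Sequences were not used here.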

Additional observations from a re-analysis of the deposited data

Results flagged for a closer look

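Of the 16 genes with the largest changes with time, 11 had a heat minus KCl difference that changed its sign between 30 and 45 min, and 7 of the 11 were at least 2-fold apart at both times. SYO1, RKI1, ARO10 and PHR1 changed sign with a difference under 2-fold at 1 of the times. Of the list medians, 14 of 37 changed sign, and 3 of these moved by at least 2-fold. None of these changes was tested, since each stress and time has 1 array. The difference of URA7, the CTP synthase gene, moved by 4.29 on the log2 scale between the times, that of YTM1 by 4.14, that of the adenine deaminase gene AAH1 by 3.94, that of the helicase gene HCA4 by 3.81, that of NOP7 by 3.81 and that of RPA135 by 3.66, each from lower to higher in heat. LSO1 moved the other way, by -3.84. As list medians, ribosome biogenesis moved by 1.67, nucleotide synthesis by 1.08 and trehalose and glycogen by -1.01. In the untreated pair, where no change with time is defined, arrays a and b differed with an SD of 0.142 over genes, against SDs of 0.411 in heat and 0.468 in KCl between 30 and 45 min. Whether the crossing comes from the times or from single arrays was not tested.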

How the results depend on the processing

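All 319 called genes named by the rule or by role kept their direction in 9 refits and in the 8 fits that left out 1 array. In the refit without the dimmest 25% of genes so did the 241 of them that it holds. This was largely fixed in advance. Heat and KCl arrays of these genes do not overlap, so leaving out 1 array cannot turn the sign. Refits that change only the spread or the other arrays keep the same heat and KCl means. Only the other normalizations, the probe set averages and the authors' ratios could have changed a direction. A fit of the 4 heat and KCl arrays has 2 residual degrees of freedom fewer, and its spread holds no untreated or peroxide arrays. What each of these changes did to the counts was not told apart. The counts of 838 higher and 830 lower fell to 294 and 303 in that fit, and to 286 and 295 with a minimum of 2-fold. With 1 array left out they ranged between 432 and 995 higher and between 416 and 879 lower. Calls against untreated cells, 2721 in heat and 3062 in KCl, were 1292 and 1604 with the 2-fold minimum, and between 1469 and 3103 in heat and between 1976 and 3057 in KCl with 1 array left out. Genes 2-fold apart at 30 min were 867, and 569 with the dimmest 25% of genes left out. With time as a replicate block 765 were higher and 759 lower, and 1467 of the 1668 genes were shared. The arrays' deviations at 45 min had r = -0.362 between heat and KCl, 0.175 between heat and peroxide and -0.204 between KCl and peroxide. These values cannot show whether arrays of the same time share a culture or batch. Of the named genes, 128 passed no longer with 4 arrays, 119 with all 22 arrays, 116 without heat at 45 min and 18 with the block. The array at 45 min of heat is the one whose loss moved most lists, and the cause was not tested. Genes near the brightest level, 14.79 to 14.86, have compressed differences, and dim genes near 4.62 have uncertain ones. A promoter motif search was not run.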

Other observations

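Some genes outside the lists described above also stood far apart. MET6, the methionine synthase gene, read 13.18 and 13.49 in heat and 11.65 and 11.04 in KCl, against 13.07 and 13.18 in untreated cells (1.99 ± 0.22, limma adjusted p = 0.00192). LEU1, of leucine synthesis, went the other way, at 10.89 and 11.02 in heat and 12.65 and 12.87 in KCl, against 12.67 and 12.49 (-1.81 ± 0.16, adjusted p = 0.000956), so KCl left LEU1 at the untreated level and heat lowered it. Amino acid synthesis as a list had 10 of 51 genes higher and 9 lower, with 3 higher without heat at 45 min, 5 higher without either untreated array and 5 lower without KCl at 30 min, so no direction is given for it. GPM2, a homologue of phosphoglycerate mutase, read 12.52 and 12.10 in heat and 10.41 and 10.79 in KCl, against 7.15 and 7.15 (1.71 ± 0.20, adjusted p = 0.00231).

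The sphingolipid list had 2 of 29 genes higher in heat and 6 lower, with 0 higher without either heat array, 1 higher without KCl at 30 min and 1 lower without heat at 45 min. ORM2, a regulator of sphingolipid synthesis, read 11.46 and 11.26 in heat and 13.30 and 12.92 in KCl, against 11.33 and 11.40 in untreated cells (-1.75 ± 0.19, adjusted p = 0.00166). Of 33 ion transport genes 6 were higher in heat and 3 lower, while 3 were higher without either untreated array, heat at 45 min or either peroxide array of the fit, and 1 was lower without heat at 45 min. The sodium pump gene ENA5, one of the 3, whose probe set can also take up signal of its near-identical neighbours, read 11.50 and 11.65 in heat and 13.25 and 13.53 in KCl, against 11.51 and 11.62 (-1.81 ± 0.15). With the mean of its probe sets the ENA5 difference was -0.60 (adjusted p = 0.0929). For both genes the heat arrays lay at the untreated level. ATG39, a receptor for autophagy of the nucleus, rose in both stresses, at 8.29 and 8.14 in heat and 10.40 and 10.28 in KCl, against 5.82 and 5.77 (-2.12 ± 0.13). The glutathione peroxidase gene GPX2 fell in both, at 8.74 and 8.62 in heat and 10.33 and 10.55 in KCl, against 11.74 and 11.57 (-1.76 ± 0.17), and the cytokinesis gene HOF1 read 8.69 and 8.84 in heat and 10.98 and 10.13 in KCl, against 10.09 and 9.99 (-1.79 ± 0.26).

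Ribosomal protein genes come in near-identical pairs, and some pairs came apart. RPS9A read 11.93 and 12.10 in heat and a mean of 9.83 in KCl, against 12.18 and 12.10 in untreated cells (2.18 ± 0.19, adjusted p = 0.000779), while its copy RPS9B was at -0.28 ± 0.25 (adjusted p = 0.427). Of 48 measured pairs, 7 were at least 2-fold apart in their heat minus KCl difference, and the median gap was 0.361. Probe sets of such pairs can take up each other's signal, and this pair was chosen after its values were seen.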
